A study of Oryza sativa with 17 samples.

Results

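OsRR6 (LOC4337372) and CYCD2-2 (LOC4343936) are 2 of the 32657 genes with expression values in grains of black and red rice, and both were taken by their gene IDs. OsRR6 is a type-A response regulator of the cytokinin pathway, and CYCD2-2 is a D-type cyclin of the cell cycle. Both were chosen by their FPKM in black rice, where Fe-treated grains held more of them than control grains, so their values in that comparison are given as a description, without a test. OsRR6 and CYCD2-2 themselves are tested only in red rice, and they were chosen with earlier results of these data known. Other genes are also tested in black rice.

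Cytokinins are perceived by membrane histidine kinases, which pass a phosphate through phosphotransfer proteins to response regulators in the nucleus. Type-B response regulators are transcription factors that switch on cytokinin targets. Type-A response regulators are among these targets and dampen the signal, so their transcripts are widely used as a readout of cytokinin signalling. D-type cyclins activate cyclin-dependent kinases at the entry into the cell cycle. In Arabidopsis, D-type cyclins respond to cytokinin and to sugar supply. Cereal endosperm divides early in grain development and fills with starch and storage protein afterwards.

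The study sprayed potted rice with iron sulphate or deionized water at the end of booting and again 7 days later, to learn how foliar Fe acts on the grain. All plants of this series, controls included, received nicotinamide at 0.5% and Tween 80 at 0.005% in the spray. The groups were Fe-treated and control grains of the black rice Nanheinuo (BR), Fe-treated and control grains of the red rice Yuhongdao 5815 (RR) at 20 days after flowering (DAF), and the same 2 treatments of RR at 15 DAF. The study used iron sulphate heptahydrate at 0.1% and at 0.2%, and the labels do not give the strength behind the Fe libraries. The methods name the 0.1% treatment as the source of the differential genes in their network, without tying it to single libraries. The BR grains were taken at 10 DAF according to the methods, whereas the labels give no day. Each group had 3 libraries, except the RR control at 15 DAF with 2, whose replicate 1 is not analysed here. A replicate was a set of 6 pails of plants. Each variety is a single cultivar, and BR and RR were sampled on different days, so variety and day cannot be told apart.

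Expression is given in FPKM, a fragment count divided by the length of the transcript and by the size of the library, so that levels of different genes can be compared. A library's FPKM added up to 547675 to 679747 over 20050 to 23671 genes with a nonzero level. Depth is unknown, so no counting interval can be given. The grain identity of the samples was read from 9 endosperm storage genes (glutelins, a prolamin and the granule-bound starch synthase GBSS1), none of which was at 0 in any library. Their summed FPKM was 198600 to 240500 in BR, 3502 to 16150 in RR at 20 DAF and 31530 to 156700 in RR at 15 DAF. Within RR at 15 DAF, the library labelled Fe replicate 1 correlated better across genes with control replicate 2 (Pearson's r = 0.969) than with Fe replicates 2 and 3 (r = 0.845 and 0.877). Fe replicates 2 and 3 correlated with the RR libraries at 20 DAF at r = 0.863 to 0.940, and with the 15 DAF controls at r = 0.827 to 0.905. Their storage sums were 31530 and 33200 FPKM, against 132800 FPKM in Fe replicate 1 and 116600 and 156700 FPKM in the controls. Which of these libraries stand apart was not tested. Differences that involve 15 DAF are therefore also given with libraries left out.

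In BR, OsRR6 reached 18.6, 8.95 and 9.16 FPKM in the 3 Fe-treated libraries, against 3.999, 3.48 and 2.07 FPKM in the 3 control libraries. All Fe-treated libraries lay above all controls, and replicate 1 stood apart at the top of the Fe-treated group. The mean was 12.2 ± 5.53 FPKM in Fe-treated BR and 3.19 ± 0.999 FPKM in the BR control (SD, n = 3 each), a ratio of 3.85. Among the genes detected in a library, OsRR6 stood above 83.5% to 90.6% of them in Fe-treated BR and above 52.5% to 71.0% in the BR control.

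CYCD2-2 reached 8.38, 3.48 and 11.5 FPKM in Fe-treated BR, against 1.58, 2.98 and 2.52 FPKM in the BR control. The groups did not overlap, but Fe replicate 2 was close to control replicate 2. The mean was 7.77 ± 4.02 FPKM in Fe-treated BR and 2.36 ± 0.710 FPKM in the BR control (SD, n = 3 each), a ratio of 3.29. CYCD2-2 stood above 67.5% to 86.4% of detected genes in Fe-treated BR and above 51.8% to 61.6% in the BR control. Across all 19774 genes tested, 8.29% had every Fe-treated BR library above every control library. As log2(FPKM + 1), the scale of all log2 differences below, OsRR6 differed by 1.62 (SE 0.27) and CYCD2-2 by 1.29 (SE 0.30), whereas the median gene differed by 0.01. The differences without any 1 of the 6 libraries lay between 1.29 and 1.78 for OsRR6 and between 0.97 and 1.71 for CYCD2-2. Fe replicate 1 and Fe replicate 3, the highest library of each gene, gave the lower ends when left out.

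**Figure D1:**
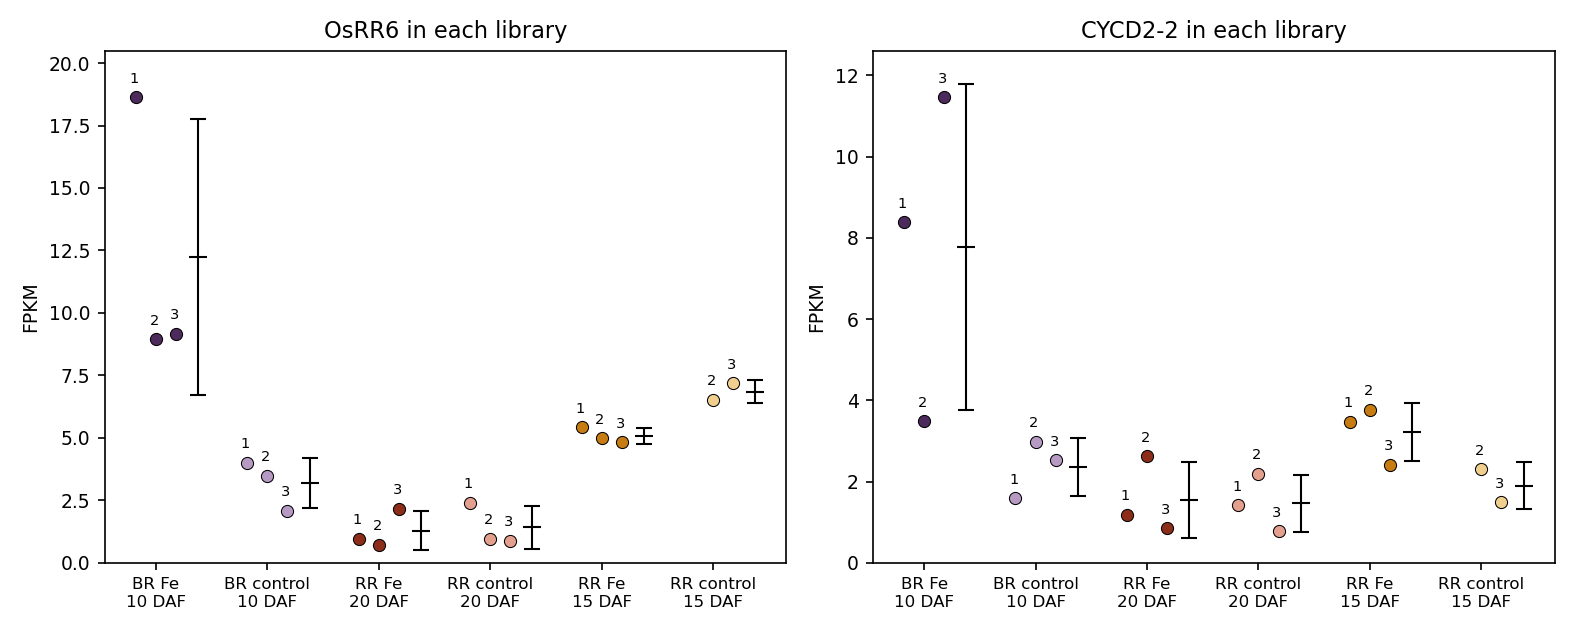
FPKM of OsRR6 (left) and CYCD2-2 (right) in each of 17 libraries, one point per library with its replicate number; the bar beside each group is the mean with 1 SD. The 3 Fe-treated BR libraries of OsRR6 sit between 8.95 and 18.6 FPKM, above every other library, and all 6 RR libraries at 20 DAF sit at 2.39 FPKM or lower.

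The relatives of OsRR6 and CYCD2-2 were next read in BR. Of 10 type-A response regulators found by name, 4 besides OsRR6 passed the filter on low values (2 or more libraries at 1 FPKM or above). Of these 4, 0 passed the test (adjusted p below 0.05, limma with Benjamini-Hochberg adjustment) and 0 had an unadjusted p below 0.05, where 1.97% and 12.8% of all genes did. Their median difference was 0.01. OsRR10, the next most abundant of them in BR, averaged 1.39 ± 0.274 FPKM in Fe-treated BR and 2.06 ± 0.429 FPKM in the BR control (SD, n = 3 each). OsRR6 thereby made up 72.8% to 84.8% of the summed FPKM of the type-A list in Fe-treated BR and 29.8% to 55.7% in the BR control.

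Of 10 D-type cyclins named, 6 besides CYCD2-2 passed the filter. Of these 6, 0 passed the test in BR and 0 had an unadjusted p below 0.05, where 1.97% and 12.8% of all genes did. Their median difference was 0.0040. CYCD5-3 averaged 1.45 ± 0.229 FPKM in Fe-treated BR and 0.952 ± 0.217 FPKM in the BR control, and CYCD3-1 averaged 0.788 ± 0.246 FPKM in Fe-treated BR and 1.05 ± 0.325 FPKM in the BR control (SD, n = 3 each). CYCD2-2 made up 55.9% to 78.1% of the summed FPKM of the D-type list in Fe-treated BR and 40.8% to 51.3% in the BR control. It was the most abundant D-type cyclin in all 6 BR libraries.

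**Figure D2:**
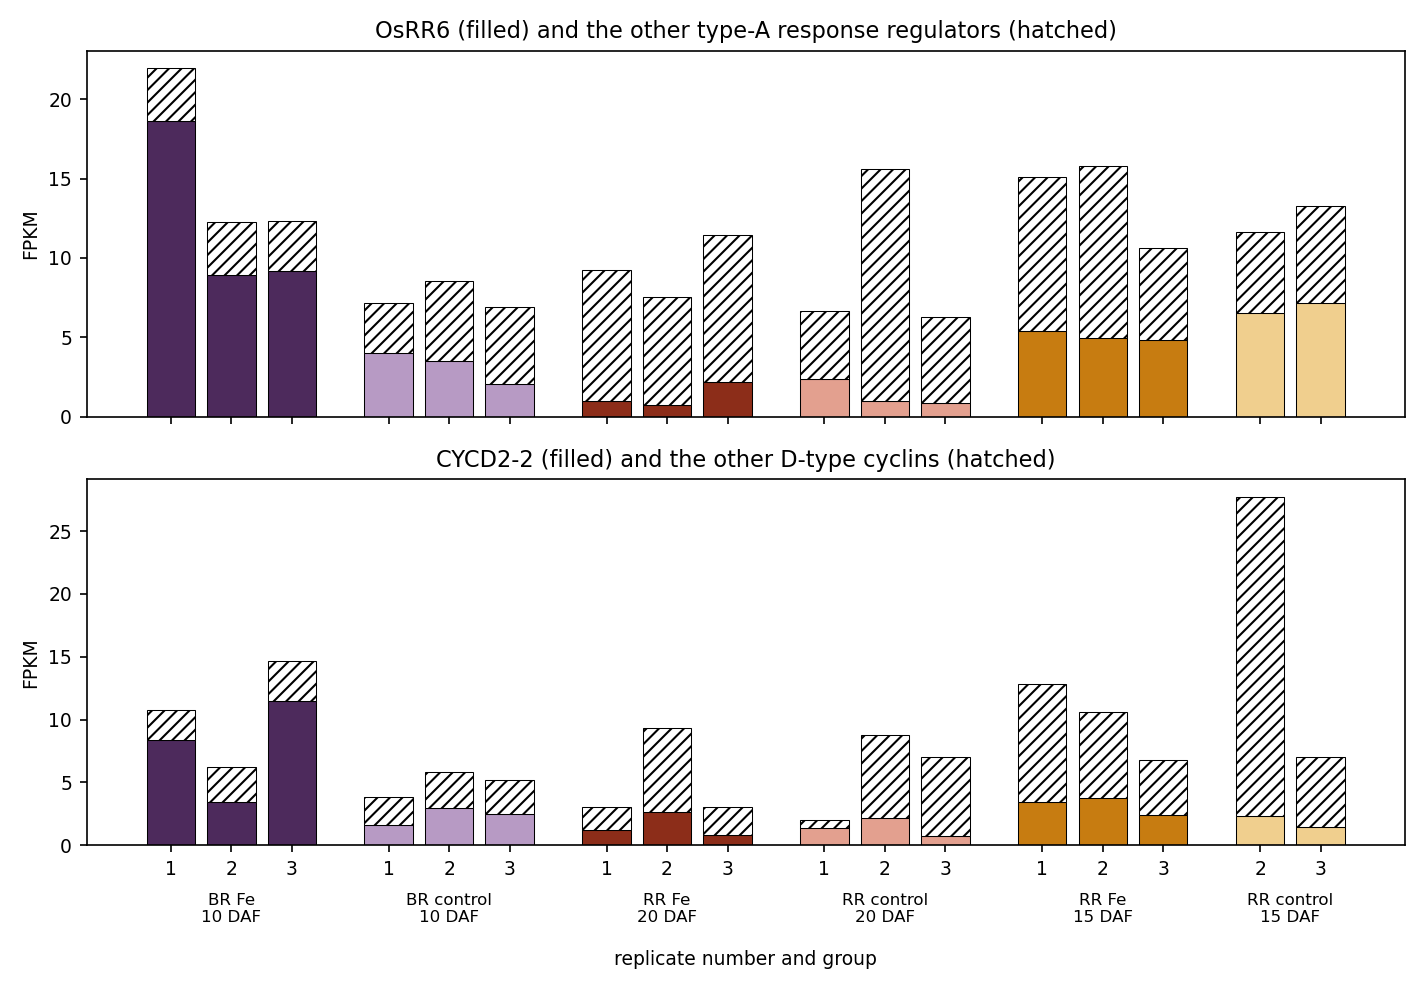
Summed FPKM of the 10 type-A response regulators (top) and the 10 D-type cyclins (bottom) in each library, with replicate numbers; the filled part of a bar is OsRR6 or CYCD2-2 and the hatched part the other genes of the list. OsRR6 is 72.8% or more of its bar in Fe-treated BR and 6.16% to 35.8% in RR at 20 DAF, and the tallest D-type bar, 27.7 FPKM in RR control replicate 2 at 15 DAF, holds 2.30 FPKM of CYCD2-2.

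The wider pathways were read in the same way. Of the cytokinin receptors and phosphotransfer proteins, 0 of 7 passed the test, where 1.97% of all genes did. It was also passed by 0 of 4 type-B response regulators, 0 of 6 genes of cytokinin synthesis and activation and 0 of 4 cytokinin oxidases, which degrade cytokinin. Among those that did not pass were AHP2, a phosphotransfer protein, RR21, a type-B regulator, and CKX11, an oxidase, which had the highest means of their lists over all 17 libraries. In BR itself the oxidase CKX5 was above CKX11, with 4.85 ± 2.91 FPKM in Fe-treated BR and 4.61 ± 2.05 FPKM in the BR control (SD, n = 3 each). At an unadjusted p below 0.05 were 2 type-B regulators, 1 synthesis gene and 1 oxidase, where 12.8% of all genes were. RR21, 1 of these, averaged 9.13 ± 1.06 FPKM in Fe-treated BR and 6.06 ± 1.43 FPKM in the BR control (SD, n = 3 each).

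In the remaining lists, 0 of 7 other cyclins and 0 of 9 DNA replication genes passed the test in BR, where 1.97% of all genes did. No B-, A2- or A3-type cyclin was among the 7. Of 17 cyclin-dependent kinases, their inhibitors and retinoblastoma-related (RBR) genes, 1 fell and 0 rose, where 1.06% of all genes were called lower. At an unadjusted p below 0.05 were 5 of the 17, beside 12.8% of all genes. The gene that fell was KRP3, a Kip-related inhibitor of cyclin-dependent kinases, with 0.972 ± 0.164 FPKM in Fe-treated BR and 2.77 ± 0.803 FPKM in the BR control (SD, n = 3 each). Its log2 difference was -0.92 (SE 0.23, adjusted p = 0.0474 by limma), and all 3 Fe-treated libraries lay below all controls, as for 6.11% of all genes. This call was close to the threshold. With 1 of the 6 BR libraries left out the adjusted p ran from 0.0199 to 0.285, and the call was lost without Fe replicate 1, Fe replicate 3, control replicate 2 or control replicate 3, as it was with either rescaling (adjusted p = 0.114 and 0.0937).

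Transcripts tied to cell division had mixed levels in the same BR grains. The highest value of any of 5 B-type cyclins, which drive mitosis, was 0.380 FPKM over the 6 BR libraries, and that of the 6 subunits MCM2 to MCM7 of the replicative helicase was 0.364 FPKM. CDKB2-1, a kinase of the G2 to M transition, did not exceed 0.0858 FPKM. Other genes of these lists were higher over the same 6 libraries. CDKB1-1 had 0.277 to 1.09 FPKM, OsPCNA, the sliding clamp of replication, 0.558 to 1.30 FPKM, CycA1;4, an A-type cyclin, 1.88 to 3.59 FPKM, and ORC2, of the origin recognition complex, 3.98 to 6.14 FPKM. CYCD2-2 had 1.58 to 11.5 FPKM in these libraries.

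Markers of other grain tissues also differed in their median between the BR groups, though their sums overlapped. The summed FPKM of 6 photosynthesis genes, markers of the green pericarp, was 50.6, 8.90 and 20.9 in Fe-treated BR, against 5.01, 7.12 and 9.59 in the BR control. 5 of the 6 differed upwards, with a median log2 difference of 1.17. Of the 6, 0 passed the test, beside 1.97% of all genes, and 2 had an unadjusted p below 0.05, beside 12.8% of all genes. Only OsrbcS, the small subunit of Rubisco, was at 0 in a BR library, in 1 control. The sum of 8 embryo and aleurone maturation genes was 203.1 to 665.3 FPKM in Fe-treated BR and 493.3 to 1603 FPKM in the BR control, with 1 or 2 of the 8 at 0 in each library. None of the 8 differed upwards, RAB16D was listed at 0 in all BR libraries, and the median log2 difference was -1.32. Dhn1, a dehydrin, was the 1 of the 8 that fell (adjusted p = 0.0402 by limma), where 1.06% of all genes were called lower. The call of Dhn1 was close to the threshold, and its values under other settings are not given here. Endosperm storage genes overlapped, with sums of 198600 to 223300 FPKM in Fe-treated BR and 203800 to 240500 FPKM in the BR control. The part of these tissues in the OsRR6 and CYCD2-2 values was not tested. In whole grains, fewer cells of a type and less RNA per cell cannot be told apart. Fe replicate 2, which had the lowest photosynthesis sum of the Fe-treated group, also had the lowest OsRR6 and CYCD2-2 of that group, and its OsRR6 was still above every control.

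In RR at 20 DAF, neither gene differed with Fe beyond the spread of the libraries. OsRR6 had 0.970, 0.710 and 2.17 FPKM in Fe-treated grains, against 2.39, 0.961 and 0.890 FPKM in control grains. The values overlapped, and 1 library of each treatment stood above the other 2. The log2 difference was -0.08 (SE 0.37, 95% interval -0.87 to 0.71, adjusted p = 1 by limma), and the exact two-sided permutation test over the 6 libraries gave p = 0.7.

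CYCD2-2 had 1.18, 2.62 and 0.848 FPKM in Fe-treated RR at 20 DAF, against 1.41, 2.19 and 0.779 FPKM in control RR. The ranges were nearly the same, with replicate 2 on top in each treatment. The log2 difference was 0.03 (SE 0.42, 95% interval -0.86 to 0.92, adjusted p = 1 by limma; exact permutation p = 0.9). Of all genes tested, 0.0253% were called in this comparison. The smallest p that 3 against 3 libraries allow in the exact test is 0.1.

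In RR at 15 DAF, OsRR6 had 5.43, 4.98 and 4.83 FPKM in Fe-treated grains, against 6.52 and 7.18 FPKM in the 2 control libraries. Every Fe-treated library lay below both controls, as for 3.05% of all genes. The mean was 5.08 ± 0.311 FPKM in Fe-treated RR (SD, n = 3) and 6.85 ± 0.465 FPKM in the RR control (SD, n = 2), a ratio of 0.742. The log2 difference was -0.37 (SE 0.52, 95% interval -1.46 to 0.72, adjusted p = 0.806 by limma). The SD of log2(FPKM + 1) was 0.073 in the Fe-treated and 0.086 in the control libraries. The SE is not taken from these libraries alone. It rests on a spread pooled over 6 groups and on a variance factor of each group over all genes. The exact permutation test gave p = 0.1, the smallest that 3 against 2 libraries allow. The difference was -0.41 without Fe replicate 1 and -0.29 without Fe replicates 2 and 3, so OsRR6 was below the controls in either kind of Fe-treated library, and it passed the test in neither fit.

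CYCD2-2 had 3.47, 3.77 and 2.42 FPKM in Fe-treated RR at 15 DAF, against 2.30 and 1.49 FPKM in the control. All 3 Fe-treated libraries lay above both controls, as for 13.7% of all genes, but Fe replicate 3 and control replicate 2 were close. The ratio of means was 1.70, and with single libraries left out the log2 difference stayed between 0.34 and 0.75. The log2 difference was 0.54 (SE 0.58, 95% interval -0.69 to 1.77, adjusted p = 0.743 by limma; exact permutation p = 0.2), where the median gene differed by 0.29. In this comparison 0 genes were called at an adjusted p below 0.05 and 1614 had an unadjusted p below 0.05, neither OsRR6 nor CYCD2-2 among them. The storage genes summed to 31530 to 132800 FPKM in Fe-treated RR and 116600 to 156700 FPKM in control RR. Without Fe replicate 1, 2651 genes were called, and both genes still missed the threshold with adjusted p of 0.594 for OsRR6 and 0.569 for CYCD2-2.

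The Fe response of RR did not differ detectably between the days. The response at 20 DAF minus that at 15 DAF was 0.29 (SE 0.64, 95% interval -1.05 to 1.63, adjusted p = 0.955 by limma) for OsRR6 and -0.51 (SE 0.72, 95% interval -2.03 to 1.00, adjusted p = 0.921) for CYCD2-2. Both intervals hold differences of 1 on the log2 scale in either direction, and 0.0152% of genes were called.

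**Figure D3:**
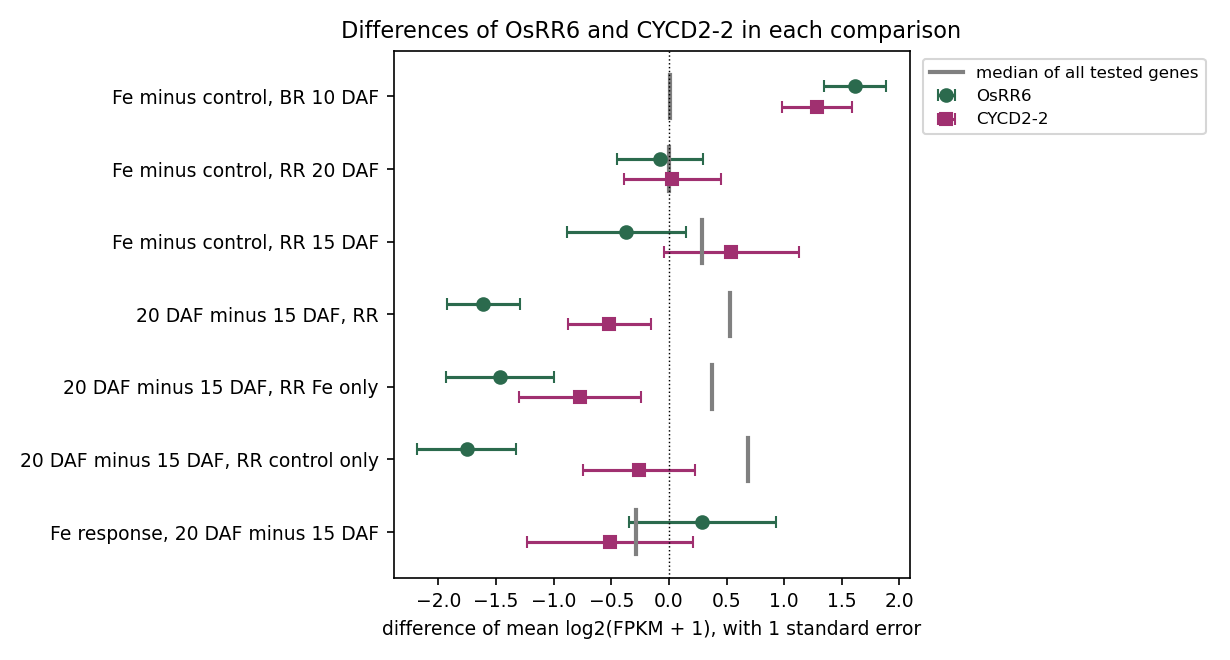
Log2 differences of OsRR6 (circles) and CYCD2-2 (squares) in each comparison, with 1 standard error as the bar and the median of all tested genes as the grey line. OsRR6 lies at 1.62 for Fe in BR and at -1.61 for 20 DAF against 15 DAF in RR, where the median gene lies at 0.53.

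Between the days, OsRR6 fell. The 6 libraries of RR at 20 DAF had 0.710 to 2.39 FPKM with a median of 0.965 FPKM, against 4.83 to 7.18 FPKM with a median of 5.43 FPKM in the 5 libraries of RR at 15 DAF. The 2 days did not overlap, as for 3.84% of all genes in this direction. In Fe-treated RR the ratio of the 20 DAF mean to the 15 DAF mean was 0.252, and in control RR it was 0.206. The log2 difference over both treatments was -1.61 (SE 0.32, 95% interval -2.28 to -0.94, adjusted p = 0.000671 by limma). With single libraries left out it ran from -1.745 to -1.518. The exact permutation test, stratified by treatment, gave p = 0.005, the smallest its 200 arrangements allow.

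The fall of OsRR6 went against the bulk of the transcriptome. In the same comparison 52.7% of genes were called, 43.5% higher and 9.21% lower at 20 DAF, and the median gene differed by 0.53. FPKM are shares of a library, and all 9 storage genes were called lower at 20 DAF. With log2 values centred on each library's median, the calls split into 3832 higher and 4260 lower genes in place of 8593 higher and 1822 lower, and OsRR6 differed by -2.14 (adjusted p = 0.000202). OsRR6 stood above 18.5% to 41.2% of detected genes at 20 DAF and above 52.0% to 68.8% at 15 DAF. In the control libraries alone the difference was -1.75 (SE 0.43, adjusted p = 0.0039 by limma), where 7.35% of genes were called lower. In the Fe-treated libraries alone it was -1.46 (SE 0.47) with an adjusted p of 0.0569, which misses the threshold, and 2.27% of genes were called lower.

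CYCD2-2 had 0.779 to 2.62 FPKM with a median of 1.30 FPKM in RR at 20 DAF, against 1.49 to 3.77 FPKM with a median of 2.42 FPKM in RR at 15 DAF. The days overlapped through replicate 2 of each treatment at 20 DAF. The log2 difference was -0.52 (SE 0.36, 95% interval -1.28 to 0.24, adjusted p = 0.235 by limma, exact stratified permutation p = 0.07). With single libraries left out it ran from -0.66 to -0.41. CYCD2-2 passed the test once the libraries were rescaled: the difference was -1.05 (adjusted p = 0.0165) after centring on library medians and -0.76 (adjusted p = 0.0409) after quantile normalization.

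The storage genes were set beside OsRR6 in each RR library. Their summed FPKM was 4878, 3502 and 9264 in Fe-treated RR and 16150, 4885 and 6142 in control RR at 20 DAF, and the library highest in storage genes within each treatment, Fe replicate 3 and control replicate 1, was also the highest in OsRR6. At 15 DAF, however, Fe replicates 2 and 3 had storage sums of 31530 and 33200 FPKM, against 132800 FPKM in Fe replicate 1, whereas their OsRR6 levels of 4.98 and 4.83 FPKM were near its 5.43 FPKM. In BR the storage sums were alike and OsRR6 was not. For CYCD2-2, replicate 2 of each treatment at 20 DAF had both the highest CYCD2-2 and the highest photosynthesis sum (117 FPKM in Fe-treated and 213 FPKM in control RR, against 34.1 to 35.8 FPKM in the other 4 libraries). In BR, however, CYCD2-2 was highest in Fe replicate 3 (11.5 FPKM at a photosynthesis sum of 20.9 FPKM). Fe replicate 1, with the highest sum (50.6 FPKM), had 8.38 FPKM. OsRR6 did not go with the photosynthesis sum at 20 DAF: replicate 2 had 0.710 FPKM in Fe-treated and 0.961 FPKM in control RR. The part of either tissue in these values was not tested.

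**Figure D4:**
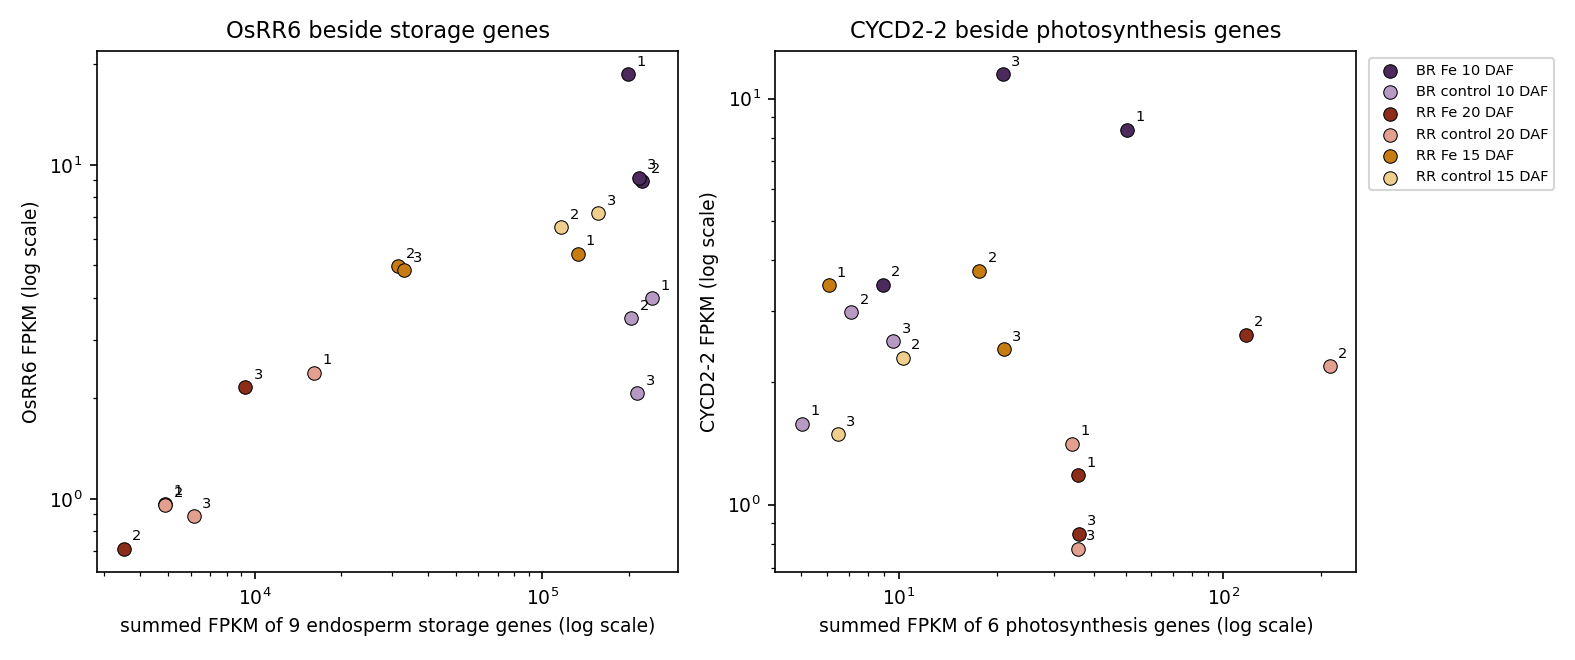
Left, FPKM of OsRR6 against the summed FPKM of 9 endosperm storage genes; right, FPKM of CYCD2-2 against the summed FPKM of 6 photosynthesis genes, both axes on a log scale, one point per library with its replicate number. OsRR6 spans 2.07 to 18.6 FPKM in BR at storage sums of 198600 to 240500 FPKM, and CYCD2-2 is highest at 20 DAF in the 2 libraries with photosynthesis sums of 117 and 213 FPKM.

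Of the 4 other type-A regulators tested, 1 fell and 0 rose at 20 DAF, where 9.21% of all genes were called lower and 43.5% higher. Their median log2 difference was 0.31. After either rescaling again 1 fell and 0 rose, while their median turned negative, to -0.23 with centring. All 19774 genes then split into 3832 higher and 4260 lower with centring, and 4103 higher and 3172 lower with quantile normalization. The type-A gene that fell was OsRR2, which averaged 0.0779 ± 0.0201 FPKM in Fe-treated RR and 0.645 ± 0.953 FPKM in control RR at 20 DAF (SD, n = 3 each), against 2.71 ± 1.20 FPKM (SD, n = 3) and 1.34 ± 0.254 FPKM (SD, n = 2) in the same treatments at 15 DAF. Its log2 difference was -1.19 (adjusted p = 0.00122 by limma), and in BR it did not exceed 0.282 FPKM. OsRR10 and OsRR1 took the lead at 20 DAF, with 2.88 ± 0.688 and 2.60 ± 0.585 FPKM in Fe-treated RR and 2.76 ± 2.27 and 2.26 ± 1.04 FPKM in control RR (SD, n = 3 each). OsRR6 was the most abundant of the 10 in 11 of 17 libraries, which included all 5 of RR at 15 DAF and, of those at 20 DAF, only control replicate 1. OsRR5, OsRR7 and OsRR13 were listed at 0 in all libraries.

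Of the 6 other D-type cyclins, 0 had a positive difference at 20 DAF, and their median was -0.62. 1 of them passed the test, where 9.21% of all genes were called lower: CYCD3-2 dropped by 0.77 on the log2 scale (limma adjusted p = 0.000781). CYCD3-2 was at or below 0.0354 FPKM in all libraries at 20 DAF, and at 15 DAF it had 1.57 and 1.62 FPKM in the control but at most 0.308 FPKM in Fe-treated grains. With centring on library medians 5 of the 6 fell, where 4260 of all 19774 genes were called lower. With quantile normalization 3 fell, where 3172 were. CYCD4-1 reached 11.04 FPKM in RR control replicate 2 at 15 DAF and 0.840 FPKM in control replicate 3. That library also held the highest level of any of the subunits MCM2 to MCM7, 3.17 FPKM.

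Upstream of the response regulators, 4 of 7 receptors and phosphotransfer proteins rose at 20 DAF and 0 fell, where 43.5% of all genes were called higher. These were the histidine kinases HK3 (log2 difference 1.32) and HK4 (0.93) and the pseudo-phosphotransfer proteins PHP1 (1.34) and PHP2 (1.12). PHP1 averaged 13.2 ± 4.98 FPKM in Fe-treated RR at 20 DAF against 5.58 ± 2.72 FPKM at 15 DAF (SD, n = 3 each). After centring or quantile normalization, PHP1 and PHP2 still passed and HK3 and HK4 did not, with HK3 at an adjusted p of 0.0596 and 0.0955 and HK4 at 0.0638 and 0.0772. Of 4 type-B regulators RR21 rose (0.95, adjusted p = 0.00197 by limma), a call lost with quantile normalization (adjusted p = 0.1).

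Among 6 genes of cytokinin synthesis and activation, 3 rose and 1 fell, all of the LOG family, whose enzymes release active cytokinin. Of all genes, 43.5% were called higher and 9.21% lower at 20 DAF, a background that also applies to the oxidases below. LOGL7 rose by 1.78 and LOGL3 by 1.54, whereas LOGL8 fell by 1.63. LOGL8 averaged 0.596 ± 0.531 FPKM in Fe-treated RR and 0.139 ± 0.121 FPKM in control RR at 20 DAF (SD, n = 3 each), against 2.90 ± 0.711 FPKM (SD, n = 3) and 3.34 ± 0.0762 FPKM (SD, n = 2) in the same treatments at 15 DAF. LOGL1 rose by 0.93 and missed the test after either rescaling (adjusted p = 0.165 and 0.221). Of 4 oxidases, CKX1 fell by 0.85 (adjusted p = 0.00512 by limma) and CKX9 rose by 0.57 (adjusted p = 0.0477). The call of CKX9 was lost after either rescaling (adjusted p = 0.909 and 0.188), and with single libraries left out it held only without RR control replicate 2 at 15 DAF, Fe replicate 3 at 20 DAF or control replicate 2 at 20 DAF.

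In the list of other cyclins, 6 of 7 rose at 20 DAF and 0 fell, where 43.5% of all genes were called higher. Those tested were CycA1;4, CycC1;1, CycH1;1, CycL1;1, CycT1;1, CycT1;2 and CycT1;4. No B-, A2- or A3-type cyclin passed the filter, so the count does not cover them. After either rescaling 0 rose and 1 fell, where all genes split into 3832 higher and 4260 lower with centring and 4103 higher and 3172 lower with quantile normalization. CycH1;1, a partner of the CDK-activating kinase, rose by 1.17, and CycC1;1, the cyclin with the highest mean over all libraries, rose by 0.93, a call lost without Fe replicate 3 or control replicate 3 at 15 DAF (adjusted p = 0.0519 and 0.0651). Of 9 DNA replication genes 7 rose and 0 fell, led by OsPCNA, the sliding clamp (1.68), and OsRPA70c, a single-strand binding subunit (1.54), and 5 still rose after either rescaling. Of 17 kinases, inhibitors and RBR genes, 7 rose, led by CDKG-2 (1.45), and 1 fell, the inhibitor KRP3, by 0.71, where 9.21% of all genes were called lower. With single libraries left out the adjusted p of KRP3 ran from 0.00529 to 0.154, and its call held only without Fe replicate 1 or control replicate 2 at 15 DAF, or Fe replicate 3 or control replicate 1 at 20 DAF. After centring 3 of the 17 rose and 5 fell. In the Fe comparisons of RR at 20 and at 15 DAF, 0 of the 64 other genes of these lists passed the test, and 1 at 20 DAF and 6 at 15 DAF had an unadjusted p below 0.05, beside 5.03% and 8.16% of all genes.

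Ordered by mean level, OsRR6 was highest in Fe-treated BR (12.2 FPKM), followed by control RR at 15 DAF (6.85 FPKM), Fe-treated RR at 15 DAF (5.08 FPKM), the BR control (3.19 FPKM), control RR at 20 DAF (1.41 FPKM) and Fe-treated RR at 20 DAF (1.28 FPKM). By FPKM, the libraries of the first 4 groups in this order did not overlap between neighbours. The BR control overlapped with control RR at 20 DAF, and the treatments overlapped at 20 DAF. By the percentage of detected genes below OsRR6, however, the BR control (52.51% to 70.98%) overlapped with RR at 15 DAF. There the percentage was 52.02% to 66.15% in Fe-treated and 68.19% to 68.75% in control grains. The order of OsRR6 between BR and RR at 15 DAF thus depends on the measure and is not resolved. CYCD2-2 was highest in Fe-treated BR (7.77 FPKM), followed by Fe-treated RR at 15 DAF (3.22 FPKM), the BR control (2.36 FPKM), control RR at 15 DAF (1.90 FPKM), Fe-treated RR at 20 DAF (1.55 FPKM) and control RR at 20 DAF (1.46 FPKM). Here every group overlapped with its neighbour, so its order is not resolved by these libraries.

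Over the 17 libraries the logarithmic levels of OsRR6 and CYCD2-2 had a Pearson's r of 0.683 and a Spearman's rho of 0.608, as a description, since the points share 6 groups and the scaling of each library, and since both genes were chosen for high values in Fe-treated BR, which favours a positive r. By r with OsRR6, CYCD2-2 came at rank 861 among all other genes tested. The genes most like OsRR6 were LOC4344650 (r = 0.944), LOC107277507 (0.933), LOC4332030 (0.921), LOC4325799 (0.915) and LOC4333421 (0.912). LOC4344650 averaged 61.2 FPKM in Fe-treated BR and 24.8 FPKM in the BR control, and 14.8 FPKM in Fe-treated and 16.1 FPKM in control RR at 20 DAF. Of genes with a short name, CIPK21 (r = 0.894), MFT1 (0.891) and CML27 (0.885) were most like it, which by name are a calcium sensor-interacting kinase, a phosphatidylethanolamine-binding protein and a calmodulin-like protein. MFT1 averaged 333 FPKM in Fe-treated BR and 216.8 FPKM in the BR control, and 44.2 FPKM in Fe-treated and 64.4 FPKM in control RR at 20 DAF.

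The genes most like CYCD2-2 were LOC4339405 (r = 0.885), LOC9270770 (0.876), SCAMP5 (0.863), LOC4339530 (0.861) and LOC4350509 (0.849), all over 17 libraries. With a short name these were SCAMP5, a secretory carrier membrane protein, OsC3H9 (0.822), a zinc finger protein, and pla2-II (0.809), a phospholipase. OsC3H9 averaged 2.51 FPKM in Fe-treated BR and at most 0.195 FPKM in the other 5 groups, so its likeness rests on Fe-treated BR. SCAMP5 had 37.1 FPKM in Fe-treated BR, 22.8 FPKM in the BR control and 13.4 to 20.0 FPKM in RR.

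In the reference annotation neither gene overlaps its neighbours. LOC4337371, next to OsRR6, averaged 2.70 FPKM in Fe-treated BR and 1.98 FPKM in the BR control, and 7.33 FPKM in Fe-treated and 8.10 FPKM in control RR at 20 DAF, against 4.42 FPKM in Fe-treated and 3.73 FPKM in control RR at 15 DAF. It was thus higher at 20 DAF, where OsRR6 was lower and the median gene was higher by 0.53 on the log2 scale. LOC4337373, on the other side of OsRR6, averaged 0.0372 FPKM in Fe-treated BR and 0.0528 FPKM in the BR control. In RR it had 1.57 FPKM in Fe-treated and 3.96 FPKM in control grains at 20 DAF, against 0.800 and 0.337 FPKM at 15 DAF. LOC4343937, next to CYCD2-2, averaged 0.237 FPKM in Fe-treated BR and 0.282 FPKM in the BR control. In RR it had 13.2 FPKM in Fe-treated and 15.0 FPKM in control grains at 20 DAF, against 6.25 and 4.41 FPKM at 15 DAF.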

How the data were processed

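Grain RNA of 17 libraries in 6 groups was used. HISAT2 alignments to IRGSP-1.0 and a StringTie assembly were the source of the FPKM per gene and library that the authors deposited. Versions and strand setting are not given in the sources used here. The table holds 32657 genes, 3920 of them new genes of the assembly. 27384 IDs were found in a RefSeq gene table of another assembly (ASM3414082v1), which was used only for names and neighbour order. No counts were at hand. Low values were searched for steps worth 1 read, and depth could not be recovered.

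In limma 3.58.1 (R 4.3.3), log2(FPKM + 1) of 19774 genes was fitted with 6 group means over all 17 libraries, arrayWeights giving each group its own variance, and eBayes with trend. A gene had to reach 1 FPKM in 2 or more libraries. Two-sided p values received Benjamini-Hochberg adjustment over these genes, and a call is an adjusted p below 0.05. The count test of the paper was left out, since the values are not counts. Single genes were also tested by exact permutation over libraries, 6 tests in all, without adjustment. The fit was tested on simulated data. Figures and tables were made with Python 3.11.15, pandas 2.3.3 and matplotlib 3.10.9.

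OsRR6, CYCD2-2 and the lists were chosen with earlier results of these data known. The lists, by short name, were type-A and type-B response regulators, cytokinin receptors and phosphotransfer proteins, cytokinin synthesis and activation, cytokinin oxidases, D-type cyclins, other cyclins, cyclin-dependent kinases with their inhibitors and RBR, DNA replication, endosperm storage, embryo and aleurone maturation, and photosynthesis. Older OsRR and ORR names are ambiguous, so type-A members rest on current synonyms. From each list the rule named up to 4 called genes per comparison with the smallest p and the gene with the highest mean; other family members were picked with their values in view. The rule also named the 5 genes with the highest Pearson's r and the 3 highest with a short name. Replicates are separate sets of pails, and no sequence is shown.

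The alternatives tried were all genes unfiltered, a filter at 5 FPKM, a pseudocount of 0.1, fits of the compared groups alone, equal weights for all libraries, centring on library medians, quantile normalization, a replicate block, an adjusted p below 0.01 with a fold change of at least 1.5, each library left out, RR Fe replicates 2 and 3 at 15 DAF left out, and each treatment alone. Their use on the lists was added after seeing the data.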

Additional observations from a re-analysis of the deposited data

Results flagged for a closer look

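The Fe differences of OsRR6 had opposite signs in BR and in RR at 15 DAF, but the RR difference did not pass the test. Every Fe-treated BR library (8.95 to 18.6 FPKM) lay above every BR control (2.07 to 3.999 FPKM), as for 8.29% of all genes. Every Fe-treated RR library at 15 DAF (4.83 to 5.43 FPKM) lay below both RR controls (6.52 and 7.18 FPKM), as for 3.05% of all genes. On the log2 scale the difference was 1.62 in BR. In RR at 15 DAF it was -0.37 (95% interval -1.46 to 0.72, adjusted p = 0.806 by limma, with a spread not taken from these libraries alone). The Fe responses thus differ by 1.98. This difference was not tested, because the BR values chose the gene, and the variety and the day of sampling cannot be told apart. Groups of 2 or 3 libraries are too small to look for single outlying libraries.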

How the results depend on the processing

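Of 148 alternative values of OsRR6 and CYCD2-2 in the tested comparisons, 139 kept the direction and the side of the threshold. The 28 of the BR comparison, which has no test, kept their direction. CYCD2-2 passed the test of 20 against 15 DAF with centring on library medians (-1.05) and with quantile normalization (-0.76), and OsRR6 missed it in Fe-treated libraries alone (-1.46). In RR at 20 DAF the small Fe differences changed sign: OsRR6 to 0.023 with quantile normalization, with a range of -0.34 to 0.19 when single libraries were left out (positive without Fe replicate 1, Fe replicate 2 or control replicate 1), and CYCD2-2 in a range of -0.25 to 0.24 (negative without Fe replicate 2 or control replicate 3). The cause was not tested.

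Counts of called genes were less stable. In BR the 390 calls became 67 with a pseudocount of 0.1, 134 with FPKM of at least 5, 0 with the BR libraries alone, 83 without the variance factor and 119 to 1512 with single libraries left out. In RR at 15 DAF, 0 calls became 2 without a filter and up to 2651 without Fe replicate 1. In RR at 20 DAF, 5 calls became 10 without a filter, 0 with the groups compared alone, 3 without the variance factor or with the stricter thresholds, and 0 to 25 with single libraries left out. The 10415 calls between the days became 1818 in Fe-treated libraries alone. The 3 calls for the difference of Fe responses became 5 without a filter, 0 with RR alone or without Fe replicates 2 and 3 at 15 DAF, and 0 to 300 with single libraries left out.

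Residual correlations of same-numbered libraries ran from -0.357 to 0.231. Residuals within groups of 2 or 3 libraries depend on each other, so these values cannot decide whether the replicate numbers pair libraries. With the replicate block the BR calls were 227 and the difference of OsRR6 between the days was -1.69, and no call of OsRR6 or CYCD2-2 changed. For the called genes of the cytokinin, cyclin, kinase and DNA replication lists, 517 of 589 alternative values kept the call and 0 changed sign. The endosperm storage, embryo and aleurone maturation, and photosynthesis genes are not part of this count. Unknown depth limits all levels near 1 FPKM.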
